A study of Mus musculus with 8 samples.

Results

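Trophoblast and extraembryonic factors are described here in reprogramming fibroblasts as 9 genes of the 18990 in the deposited table. They are the caudal-type factor *Cdx2*, the T-box factor *Eomes*, the AP-2 factor *Tfap2c*, the zinc finger factors *Gata2* and *Gata3*, the basic helix-loop-helix factor *Hand1* and the X-linked homeobox genes *Rhox5*, *Rhox6* and *Rhox9*. The genes were picked by name, and all 9 were found. *Rhox6* was picked because of its difference between the knockdowns at day 6, so its values are described below without a test wherever day 6 libraries enter.

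The cells were wild-type BL6 mouse embryonic fibroblasts (MEFs), transduced with the tet-STEMCCA lentivirus, which carries *Oct4*, *Sox2*, *Klf4* and *c-Myc* (OSKM) under the control of doxycycline, and with rtTA, the doxycycline-dependent activator. They were transfected with 40 nM of pooled siRNAs against *Ncor1*, a nuclear receptor corepressor, or against *Oct4*. One day later they were moved to medium with doxycycline, serum, chiron, an Alk5 inhibitor, ascorbic acid and LIF. RNA was sequenced after 3 and 6 days, and each of the 4 groups has 2 biological replicates (*siNcor1* day 3, *siOct4* day 3, *siNcor1* day 6 and *siOct4* day 6). All 8 libraries thus carry OSKM and an siRNA. Non-targeting control libraries are outside what was analysed here, so a level in *siNcor1* is not a level in unperturbed reprogramming.

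The trophoblast is the first lineage to separate from the embryo proper and forms the fetal part of the placenta. CDX2, EOMES, TFAP2C and GATA3 act in the trophectoderm and in trophoblast stem cells, and OCT4 and CDX2 are known to repress each other's genes in the early embryo. GATA2, GATA3 and HAND1 act later, in trophoblast giant cells. The *Rhox* genes form a homeobox cluster on the X chromosome that is expressed in placenta and in reproductive tissues, and DNA methylation is known to silence the cluster in the embryo itself. OSKM reprogramming of fibroblasts is heterogeneous, and none of these genes marks the trophoblast by itself: *Gata2* and *Tfap2c*, for example, are used in several other tissues.

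The libraries held between 7735742 and 16445192 reads on genes. A value of 3 reads stood for between 0.174 and 0.380 CPM (reads of a gene per 1000000 reads of the effective library size, which was between 0.951 and 1.05 times the reads on genes), so the genes at a few reads are known only within wide counting error, and intervals given below cover counting error only. The libraries labelled *siOct4* did not have less *Pou5f1*, the gene for OCT4: against *siNcor1* its log2 difference was −0.076 at day 3 (limma, adjusted p = 0.941) and 1.78 at day 6 (adjusted p = 1.1e-04). *Ncor1* at day 3 was lower in *siNcor1*, the libraries labelled *siOct4* exceeding it by 0.74 on the log2 scale (adjusted p = 0.0139), and at day 6 the log2 difference was −0.042 (adjusted p = 0.815). The paper reports that *Oct4* mRNA was silenced early in reprogramming and soon recovered, which it ascribes to strong expression from the OSKM cassette. Earlier libraries are not among those analysed here, so the *Pou5f1* values above cannot show whether the *Oct4* knockdown worked before that recovery. The libraries are named by their label throughout. Replicates differed beyond counting noise in all 4 groups. The non-coding gene *Gm26917* took between 15.5% and 29.1% of the reads on genes, most in the day 6 libraries labelled *siOct4*.

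On GRCm38 (mm10), the *Rhox* genes lie close together on chromosome X, *Rhox5* at chrX:37804842-37808876 and *Rhox6* at chrX:37826910-37829857 on the plus strand and *Rhox9* at chrX:37899097-37901770 on the minus strand. *Rhox6* and *Rhox9* are near copies. Their coding sequences are both 684 bases long and have the same base at 620 positions (90.6%) with no gap, whereas *Rhox5*, with 633 coding bases, matched *Rhox6* at 62.7% and *Rhox9* at 65.0% of the aligned bases. The stretch from coding base 313 to coding base 462 is shown because it holds 26 of their differences, by which reads of the pair can be told apart. Capitals mark the bases at which the pair differ, in transcripts Rhox6-201 and Rhox9-201 of GENCODE M21.
*Rhox6*: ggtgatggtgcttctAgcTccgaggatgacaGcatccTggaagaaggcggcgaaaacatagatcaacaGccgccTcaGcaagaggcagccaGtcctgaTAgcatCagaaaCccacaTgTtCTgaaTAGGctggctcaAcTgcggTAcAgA
*Rhox9*: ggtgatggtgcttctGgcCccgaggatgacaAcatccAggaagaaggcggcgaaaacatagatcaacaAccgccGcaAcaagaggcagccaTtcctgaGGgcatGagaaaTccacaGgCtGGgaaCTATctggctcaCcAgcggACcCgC
Of the 968 possible 43-base reads of *Rhox6*, 18.3% also occur in *Rhox9*, and of the 2524 of *Rhox9*, 7.01% occur in *Rhox6*. The authors sequenced paired reads of 43 bases. How reads that match both genes were counted is not given in the sources used here, so part of the reads of either gene could belong to the other.

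The other members are single genes: *Gata2* at chr6:88193891-88207032 (plus strand), *Gata3* at chr2:9857078-9890034 (minus strand), *Tfap2c* at chr2:172549593-172558622 (plus strand), *Cdx2* at chr5:147300805-147307270 (minus strand), *Eomes* at chr9:118478212-118486132 (plus strand) and *Hand1* at chr11:57828705-57832818 (minus strand). Exons of *Gata3* overlap the antisense gene *Gm13256* and the same-strand gene *9230102O04Rik*, and exons of *Eomes* overlap the antisense gene *Gm33460*. None of these neighbours is among the genes analysed. Whether strand was used in counting is not given in the sources used here, so reads in the shared stretches cannot be separated from those of the overlapping genes. Of the possible 43-base reads, 2.75% of those of *Gata3* and 2.29% of those of *Eomes* also occur in another gene. RefSeq promoter windows (GRCm38.p6) matched 5 of the 9 members, *Rhox5*, *Gata2*, *Gata3*, *Cdx2* and *Eomes*. The 250 bases before the RefSeq start of *Cdx2* and of *Gata3* are shown because *Cdx2* was without a read and *Gata3* expressed at day 3, and both were lower in *siOct4* at day 6. The RefSeq transcript starts differ from the outer gene bounds given above, so that the *Gata3* window lies within the annotated span of the gene and the *Cdx2* window overlaps its outer end. Capitals mark the octamer ATGCAAAT, a word that OCT4 and other POU factors can bind, and GCCNNNGGC, the word of AP-2 factors such as TFAP2C. Both strands were searched, also for the GATA words AGATAA or AGATAG or TGATAA or TGATAG, the E-box CACGTG and the T-box word AGGTGTGA.
*Cdx2*, chr5:147307250-147307499, minus strand: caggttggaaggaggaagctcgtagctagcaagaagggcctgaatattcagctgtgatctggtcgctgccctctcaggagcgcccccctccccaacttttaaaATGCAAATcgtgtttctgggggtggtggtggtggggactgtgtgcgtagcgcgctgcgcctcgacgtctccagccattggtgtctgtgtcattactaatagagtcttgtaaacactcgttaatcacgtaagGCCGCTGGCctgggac
*Gata3*, chr2:9878601-9878850, minus strand: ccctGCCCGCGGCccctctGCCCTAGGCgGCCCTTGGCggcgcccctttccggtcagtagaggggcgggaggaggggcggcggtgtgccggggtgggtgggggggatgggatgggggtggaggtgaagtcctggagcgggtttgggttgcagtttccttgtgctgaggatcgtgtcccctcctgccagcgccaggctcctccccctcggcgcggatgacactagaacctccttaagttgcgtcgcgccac
The *Cdx2* window held 1 octamer, which 1.74% of 32851 promoter windows of 300 bases contain, and 1 AP-2 word, which 16.6% contain. The *Gata3* window held 3 AP-2 words, and 1 GATA word (29.8% of windows) in the 50 bases after the start that are not shown. Neither window held the E-box (7.15%) or the T-box word (1.28%). Of the other windows, one of those of *Gata2* held 1 AP-2 word. A match is a description of the sequence and not a binding site.

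Without *Rhox6*, the summed level of the other 8 members was between 18.1 and 23.3 CPM in the 4 day 3 libraries. At day 6 it was 69.0 and 72.5 CPM in *siNcor1* and 19.2 and 21.1 CPM in the libraries labelled *siOct4*, which lies in the day 3 range. The sum in *siOct4* combines opposite moves. From day 3 to day 6 the mean of *Gata2* there went from 14.2 to 7.68 CPM, and that of *Tfap2c* from 0.515 to 7.35 CPM. Between 2 and 5 members had 0 reads in each day 3 library, whereas every member had at least 1 read in each day 6 library. These are bulk samples, in which a change in the number of cells that express a gene cannot be told apart from a change in RNA per cell.

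**Figure D1:**
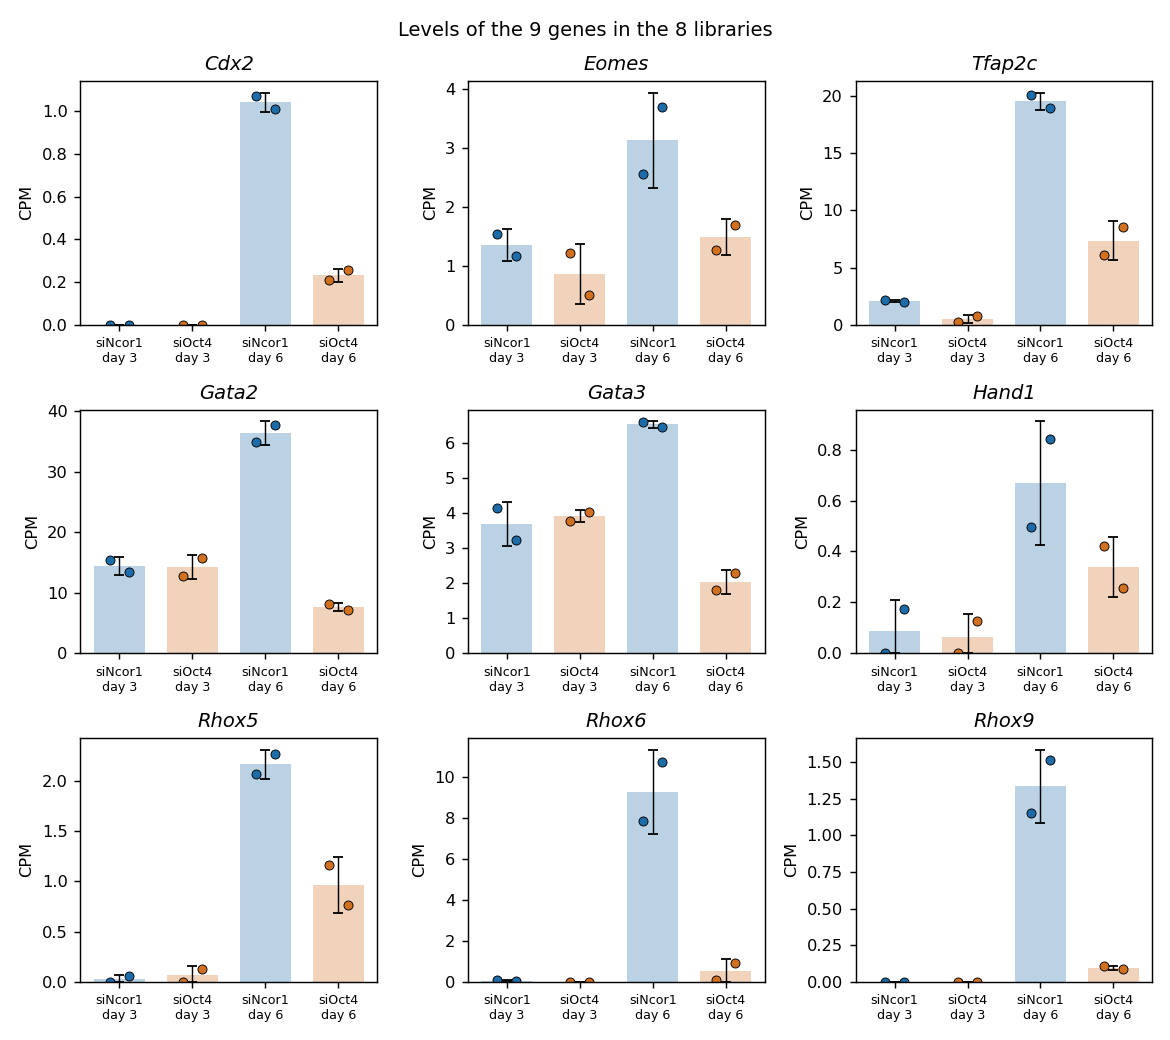
Level in CPM (linear axis from 0, a different range in each panel) of the 9 genes in the 4 groups. Points are the 2 libraries of each group, bars their mean and error bars the SD (cut at 0). In the 8 panels other than that of *Rhox6*, which was chosen for this difference, both *siNcor1* day 6 libraries lie above the day 6 libraries labelled *siOct4*, while *Gata2*, *Gata3*, *Tfap2c* and *Eomes* have reads in every day 3 library.

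CDX2 specifies the trophectoderm. *Cdx2* had 0 reads in all 4 day 3 libraries, which allows at most 3 reads in each, or up to 0.380 CPM in the shallowest library. At day 6 it had 13 and 12 reads (1.07 and 1.01 CPM) in *siNcor1* and 2 and 3 reads (0.211 and 0.255 CPM) in the libraries labelled *siOct4*. *Cdx2* was thus detected at day 6 in all 4 libraries. With 3 reads set over the 2 libraries of each day 3 group, the ratio of day 6 to day 3 was 11.6 in *siNcor1* (limma without the filter on low values, adjusted p = 7.3e-04). In *siOct4* it was 1.78 (adjusted p = 0.0258). These ratios take the day 6 reads as exact and are no full lower bounds. The call in *siOct4* rests on 5 reads and was lost under 7 of 15 alternatives (adjusted p from 0.00166 to 0.115). Between the knockdowns at day 6 the log2 difference was −1.67 (standard error 0.46, adjusted p = 0.0241, without the filter), a call that was lost without either *siNcor1* day 6 replicate (0.0866 and 0.105) and without *siOct4* day 6 replicate 1 (0.0699).

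EOMES maintains trophoblast stem cells. *Eomes* was at 1.55 and 1.16 CPM in *siNcor1* and 1.22 and 0.506 CPM in *siOct4* at day 3, groups that overlap. The day 6 values were 2.56 and 3.70 CPM in *siNcor1* and 1.27 and 1.70 CPM in *siOct4*, with no overlap. Its log2 difference between the knockdowns was −0.66 (standard error 0.41, adjusted p = 0.673) at day 3 and −1.003 (standard error 0.41, adjusted p = 0.0834) at day 6 (limma). From day 3 to day 6 the log2 difference was 1.12 in *siNcor1* (adjusted p = 0.0515) and 0.78 in *siOct4* (adjusted p = 0.128). *Eomes* therefore passed the threshold in none of the comparisons, although the *siNcor1* day difference passed it under 8 of 16 alternatives (adjusted p from 0.00909 to 0.264) and the day 6 knockdown difference under 3 of 16 (from 0.0444 to 0.385).

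TFAP2C acts in the trophectoderm, in germ cells and in naive pluripotent cells. *Tfap2c* was at 2.17 and 2.03 CPM in *siNcor1* and at 0.271 and 0.759 CPM in *siOct4* at day 3, and at 20.1 and 19.0 CPM in *siNcor1* and 6.13 and 8.57 CPM in *siOct4* at day 6. It was the only member called lower in the libraries labelled *siOct4* at both days. The log2 difference between the knockdowns was −1.89 at day 3 (standard error 0.34, adjusted p = 0.0231, limma) and −1.41 at day 6 (standard error 0.34, adjusted p = 0.00981). The day 3 value rests on 10 reads in the libraries labelled *siOct4*, and the call was lost in a fit without the variance trend (0.0915), with voom (0.0539), with only the groups compared (0.0603), and without *siNcor1* day 3 replicate 1 (0.168), *siNcor1* day 3 replicate 2 (0.237) or *siOct4* day 3 replicate 1 (0.104). The day 6 call was lost without either *siNcor1* day 6 replicate (0.0568 and 0.0653). *Tfap2c* rose from day 3 to day 6 in both, by 3.14 on the log2 scale in *siNcor1* (8.81-fold, adjusted p = 7.5e-05) and by 3.61 in *siOct4* (12.2-fold, adjusted p = 7.3e-06), and both calls held under all 16 alternatives. The knockdown difference did not change between the days beyond the spread (0.47 on the log2 scale, standard error 0.48, adjusted p = 0.515).

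GATA2 and GATA3 activate trophoblast genes, placental lactogen genes among them, and GATA2 is also a blood stem cell factor. *Gata2* was already at 15.4 and 13.3 CPM in *siNcor1* and 12.8 and 15.7 CPM in *siOct4* at day 3, levels that overlap (log2 difference −0.016, standard error 0.17, adjusted p = 0.991). By day 6 *Gata2* stood at 34.9 and 37.7 CPM in *siNcor1* and 8.14 and 7.21 CPM in *siOct4*. The direction over time was opposite in the knockdowns: *Gata2* rose by 1.33 on the log2 scale in *siNcor1* (2.52-fold, standard error 0.17, adjusted p = 1.8e-04) and fell by 0.88 in *siOct4* (1.84-fold lower, adjusted p = 9.8e-04). The day 6 level was 4.67-fold lower in the libraries labelled *siOct4* (log2 difference −2.22, standard error 0.17, adjusted p = 5.0e-05). From day 3 to day 6 the knockdown difference moved by −2.21 (standard error 0.24, adjusted p = 6.0e-04). The calls of *Gata2* at day 6, over time and for this change held under every alternative run.

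*Gata3* followed the same course at a lower level. It was at 4.15 and 3.25 CPM in *siNcor1* and 3.79 and 4.05 CPM in *siOct4* at day 3, which overlap (log2 difference 0.092, standard error 0.25, adjusted p = 0.954). By day 6 *Gata3* was at 6.61 and 6.47 CPM in *siNcor1* and 1.80 and 2.29 CPM in *siOct4*, 3.08-fold lower (log2 difference −1.62, standard error 0.25, adjusted p = 9.6e-04). It rose by 0.81 in *siNcor1* (1.75-fold, adjusted p = 0.0233) and fell by 0.90 in *siOct4* (1.87-fold lower, adjusted p = 0.00848). Between the days its knockdown difference moved by −1.72 (standard error 0.35, adjusted p = 0.00626). The rise in *siNcor1* was the weakest of these calls and was lost with quantile normalization (0.0688) and without *siNcor1* day 3 replicate 2 (0.169), *siNcor1* day 6 replicate 1 (0.117) or *siNcor1* day 6 replicate 2 (0.0977). The fall in *siOct4* was at 0.0502 without *siOct4* day 3 replicate 2.

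HAND1 drives the formation of trophoblast giant cells. *Hand1* was the lowest member over the 8 libraries, with 0 and 3 reads in *siNcor1* and 0 and 1 in *siOct4* at day 3, and 6 and 10 reads in *siNcor1* and 4 and 3 in *siOct4* at day 6. In *siNcor1* the ratio of day 6 to day 3 was 7.42 (95% exact counting interval 2.12 to 39.8, adjusted p = 0.0277 from limma without the filter). That call was lost without the variance trend (0.0532), with quantile normalization (0.0523) and without *siNcor1* day 3 replicate 1 (0.217), *siNcor1* day 6 replicate 1 (0.0731) or *siNcor1* day 6 replicate 2 (0.164). In *siOct4* the ratio was 7.47 (0.959 to 337, adjusted p = 0.0883). Between the knockdowns at day 6 the log2 difference was −0.75 (standard error 0.57, adjusted p = 0.388), so no difference was detectable at this depth.

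The *Rhox* genes were nearly silent at day 3, with between 0 and 1 read each in every library. RHOX5 is a homeodomain protein of trophoblast, early embryo and testis. *Rhox5* had 25 and 27 reads (2.07 and 2.27 CPM) in *siNcor1* and 11 and 9 reads (1.16 and 0.764 CPM) in *siOct4* at day 6. It was higher than at day 3 in both, with a ratio of 72.4 in *siNcor1* (95% counting interval 12.4 to 2913, adjusted p = 2.8e-04 from limma without the filter) and 21.3 in *siOct4* (3.41 to 884, adjusted p = 0.00143), and both calls held under all 15 alternatives. Its knockdown difference at day 6 was −1.09 on the log2 scale (standard error 0.48, adjusted p = 0.134), with no overlap between the groups.

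RHOX6 and RHOX9 are placental and germ cell homeodomain proteins. *Rhox6*, the member chosen for its day 6 difference, had 1 and 1 read in *siNcor1* and 0 and 0 in *siOct4* at day 3. At day 6 it had 95 and 128 reads (7.85 and 10.8 CPM) in *siNcor1* and 1 and 11 reads (0.106 and 0.934 CPM) in *siOct4*, so that its level in *siOct4* rests almost wholly on replicate 2. The fitted day 6 difference was −4.20 on the log2 scale (standard error 0.64, 18.3-fold lower in *siOct4*), which is a description of the choice. The ratio of day 6 to day 3 was 155 in *siNcor1* (95% counting interval 42.5 to 1289). In *siOct4* the ratio was 4.27 with 3 reads set for day 3 and the day 6 reads taken as exact. *Rhox9* had 0 reads in all day 3 libraries, 14 and 18 reads in *siNcor1* and 1 and 1 read in *siOct4* at day 6. With 3 reads set for day 3 and the day 6 reads taken as exact, the ratio of day 6 to day 3 was 14.8 in *siNcor1* (adjusted p = 4.7e-04). At day 6 *siNcor1* was above *siOct4* by a ratio of 14.2 (95% counting interval 3.61 to 122, adjusted p = 0.00301, limma without the filter). Both calls of *Rhox9* held under all 15 alternatives. The *siNcor1* day 6 libraries held 223 reads of *Rhox6* and 32 of *Rhox9*, and since part of the sequence is shared, the values of these genes are not independent. With 18.3% of the possible 43-base reads of *Rhox6* also in *Rhox9*, an unknown part of the *Rhox9* reads could come from *Rhox6*. The tests of *Rhox9* are therefore not free of the choice of *Rhox6*. No other *Rhox* gene was among the genes analysed.

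Called members can be set against the background of each comparison. Of the 9 members, 5 passed the filter on low values, which asks for 1 CPM on average (*Gata2*, *Gata3*, *Eomes*, *Tfap2c* and *Rhox6*), and *Rhox6* passed mainly through its *siNcor1* day 6 level. Between the knockdowns at day 3, 1 of 4 without *Rhox6* was called, which was *Tfap2c*, lower in *siOct4*, beside 0.692% of all tested genes lower. At day 6, without *Rhox6*, 3 of 4 were lower (*Gata2*, *Gata3* and *Tfap2c*), beside 18.6% of all tested genes. From day 3 to day 6, 3 of 4 rose in *siNcor1*, beside 13.8%. In *siOct4*, 1 of 4 rose, beside 22.2%, and 2 of 4 fell, beside 30.5%. Without *Rhox6*, the 2 day 6 groups did not overlap in 8 of 8 members, *siNcor1* above *siOct4*, while 30.2% of the 18990 genes of the table showed that order. In *siNcor1* these 8 were higher in both day 6 libraries than in both day 3 libraries, beside 31.3% of all genes, and in *siOct4* 6 of the 8 were higher, beside 33.9%, and 2 were lower, beside 34.7%. Without the filter and without *Rhox6*, 5 of 8 members were lower in *siOct4* at day 6, beside 13.0% of all genes, 7 of 8 rose in *siNcor1*, beside 10.9%, and in *siOct4* 3 rose, beside 19.0%, and 2 fell, beside 22.8%. The knockdown difference moved downward between the days in 2 of 4 tested members (*Gata2* and *Gata3*), beside 12.9% of tested genes, and for *Rhox9* by −2.66 (adjusted p = 0.0237 without the filter, beside 8.52% of all genes), a call lost under 7 of 14 alternatives (adjusted p up to 0.0957). The comparisons share libraries (both day comparisons and both knockdown comparisons use the same 8), so these counts are not independent. *Rhox9*, which shares sequence with the chosen *Rhox6*, is in the 8 of 8, the 5 of 8 and the 7 of 8. Those counts are thus not fully free of that choice. With so few members the counts describe these genes only.

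Per length of annotated exons, the order of the members changed between the days. In RPKM (CPM per 1000 bases of exon), *Gata2* led at day 3 with 2.66 ± 0.2703 (SD, n = 2) in *siNcor1* and 2.64 ± 0.379 in *siOct4*, followed by *Gata3* with 0.929 ± 0.159 and 0.986 ± 0.0457. In *siNcor1*, *Tfap2c* (0.570 ± 0.0260) and *Eomes* (0.326 ± 0.0658) came next, and neighbours in this order did not overlap down to *Eomes*. All *Rhox* genes, *Cdx2* and *Hand1* were at or under 0.0839 RPKM on average in both day 3 groups, and their order there cannot be read. In *siNcor1* at day 6 *Rhox6* led with 9.21 ± 2.04 RPKM, ahead of *Gata2* (6.73 ± 0.366), *Tfap2c* (5.31 ± 0.207), *Rhox5* (2.87 ± 0.192), *Gata3* (1.64 ± 0.0243), *Eomes* (0.753 ± 0.194), *Rhox9* (0.536 ± 0.101), *Cdx2* (0.461 ± 0.0204) and *Hand1* (0.335 ± 0.122). Only *Rhox9* and *Cdx2* overlapped as neighbours in that order. In the libraries labelled *siOct4* at day 6, *Tfap2c* led with 2.00 ± 0.470, ahead of *Gata2* (1.42 ± 0.121) and *Rhox5* (1.28 ± 0.374), and *Gata2* and *Rhox5* overlapped. *Rhox6* was then at 0.515 ± 0.580 and overlapped with *Gata3* (0.514 ± 0.0881).

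**Figure D2:**
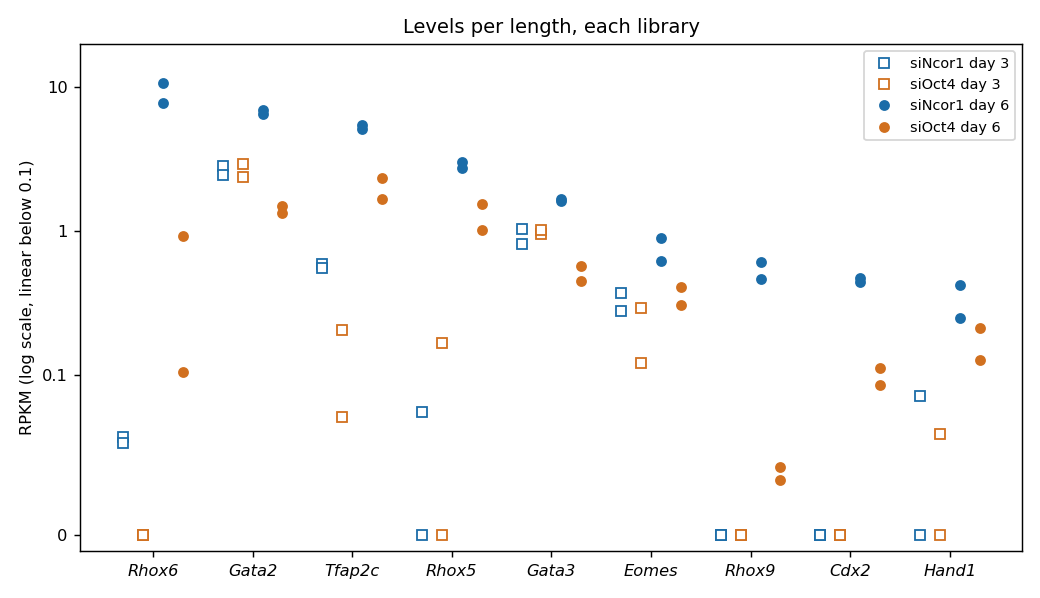
Level per length of annotated exons (RPKM, log axis that is linear below 0.1) of each gene in each library, with genes ordered by their *siNcor1* day 6 mean. Open squares are day 3 and filled circles day 6. *Gata2* and *Gata3* are the only members whose *siOct4* day 6 circles lie under their day 3 squares.

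Genes with profiles most like those of the tested members were found over the 8 libraries, by the root mean square difference of the centred log2 values. For *Gata2* these were *Peg10* (0.219) and *H19* (0.244), imprinted genes that are abundant in placenta. *Peg10* was at 165 CPM in *siNcor1* and 151 CPM in *siOct4* at day 3, and at 408 CPM and 69.8 CPM at day 6 (group means). *H19* was at 647 CPM and 462 CPM at day 3, and at 1501 CPM and 290 CPM at day 6. Both genes were thus already abundant at day 3. For *Gata3* they were *Arnt2* (0.110) and *Gxylt2* (0.172), for *Eomes* *Slc40a1* (0.188) and *Tgm1* (0.207), and for *Tfap2c* *Spint1* (0.378) and *Tdh* (0.387). *Tdh*, threonine dehydrogenase, is an enzyme of mouse pluripotent cells, and *Spint1* encodes an epithelial protease inhibitor. For *Rhox6*, *Tmprss2* (0.443), which encodes an epithelial surface protease, is given. *Tmprss2* was at 9.55 CPM in *siNcor1* and 0.456 CPM in *siOct4* at day 6. It passed the filter mainly through its *siNcor1* day 6 level. Since it was found by its likeness to *Rhox6*, its day 6 difference follows from the choice of *Rhox6*.

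Placental and trophoblast genes outside the 9 members were counted in a list of 32, of which 22 were among the genes analysed and 15 passed the filter. The filter averages all 8 libraries, and *Gjb2* and *Phlda2* passed it mainly through their *siNcor1* day 6 level. Counts of genes higher in that group are thus partly set by the filter. In *siNcor1* 11 of the 15 rose from day 3 to day 6, with a median log2 difference of 3.16 over the 15, beside 13.8% and −0.068 over all genes tested. In *siOct4* 6 rose, beside 22.2%, and 4 fell, beside 30.5% (median 0.30, beside −0.079). Between the knockdowns, 11 of 15 were lower in *siOct4* at day 6, beside 18.6% (median −1.91, beside −0.025), and 2 at day 3, beside 0.692%. The members that moved most were *Krt8* and *Krt18*, which encode keratins of all simple epithelia, *Gjb2*, a connexin of placenta and other epithelia, and *Phlda2*, an imprinted gene that limits placental growth. *Krt18* had 55 and 51 reads in *siNcor1* and 64 and 23 in *siOct4* at day 3, and 1804 and 1680 in *siNcor1* and 155 and 208 in *siOct4* at day 6 (day 6 log2 difference −3.08, standard error 0.19, adjusted p = 9.2e-06). *Phlda2* had between 0 and 4 reads in the day 3 libraries, and 119 and 126 in *siNcor1* and 12 and 21 in *siOct4* at day 6 (log2 difference −2.66, adjusted p = 0.00128). *Gjb2* had 143 and 152 reads in *siNcor1* and 1 read in each library labelled *siOct4* at day 6. Over time *Krt8* rose by 5.01 in *siNcor1* and 5.76 in *siOct4*, *Krt18* rose by 5.46 and 2.22, and *Phlda2* also rose in both (adjusted p = 7.2e-04 in *siOct4*). *Gjb2* rose by 4.83 in *siNcor1* but fell in *siOct4*. There its ratio of day 6 to day 3 was 0.152 (95% counting interval 0.0168 to 0.664, limma adjusted p = 0.0117), a call lost under 1 of 15 alternatives.

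Other regulators of the trophectoderm and trophoblast stem cells were called in both directions over time. Of 26 listed genes 22 were tested, *Esrrb* among them mainly through its *siNcor1* day 6 level. At day 6, 13 were lower in *siOct4*, beside 18.6% of all tested genes, and the median log2 difference was −0.53. At day 3 limma called 0 (2 higher and 5 lower had an unadjusted p under 0.05, and voom called 1 lower). In *siNcor1* 9 of the 22 rose, beside 13.8% of all tested genes, and 3 fell, beside 20.9%. In *siOct4* 6 rose, beside 22.2%, and 9 fell, beside 30.5%, shares not far from those of all genes. *Esrrb* and *Sall4* also stand in the list of pluripotency markers below. *Esrrb*, which is shared by trophoblast stem cells and pluripotent cells, had at most 1 read in each day 3 library, and 73 and 83 reads in *siNcor1* and 14 and 16 in *siOct4* at day 6 (log2 difference −2.09, adjusted p = 0.00593, but 0.0797 without *siNcor1* day 6 replicate 2). *Grhl2*, an epithelial factor, had 120 and 99 reads in *siNcor1* and 39 and 36 in *siOct4* at day 6 (log2 difference −1.32, adjusted p = 0.0304, a call lost under 3 of 15 alternatives, with adjusted p up to 0.166). *Sall4*, a pluripotency factor, rose in both knockdowns, by 2.37 in *siNcor1* and 3.46 in *siOct4*, and its day 6 difference was −0.71 (adjusted p = 0.227). *Fgfr2*, the receptor through which FGF4 keeps trophoblast stem cells proliferating, fell by 0.98 in *siNcor1* and by 2.18 in *siOct4*.

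**Figure D3:**
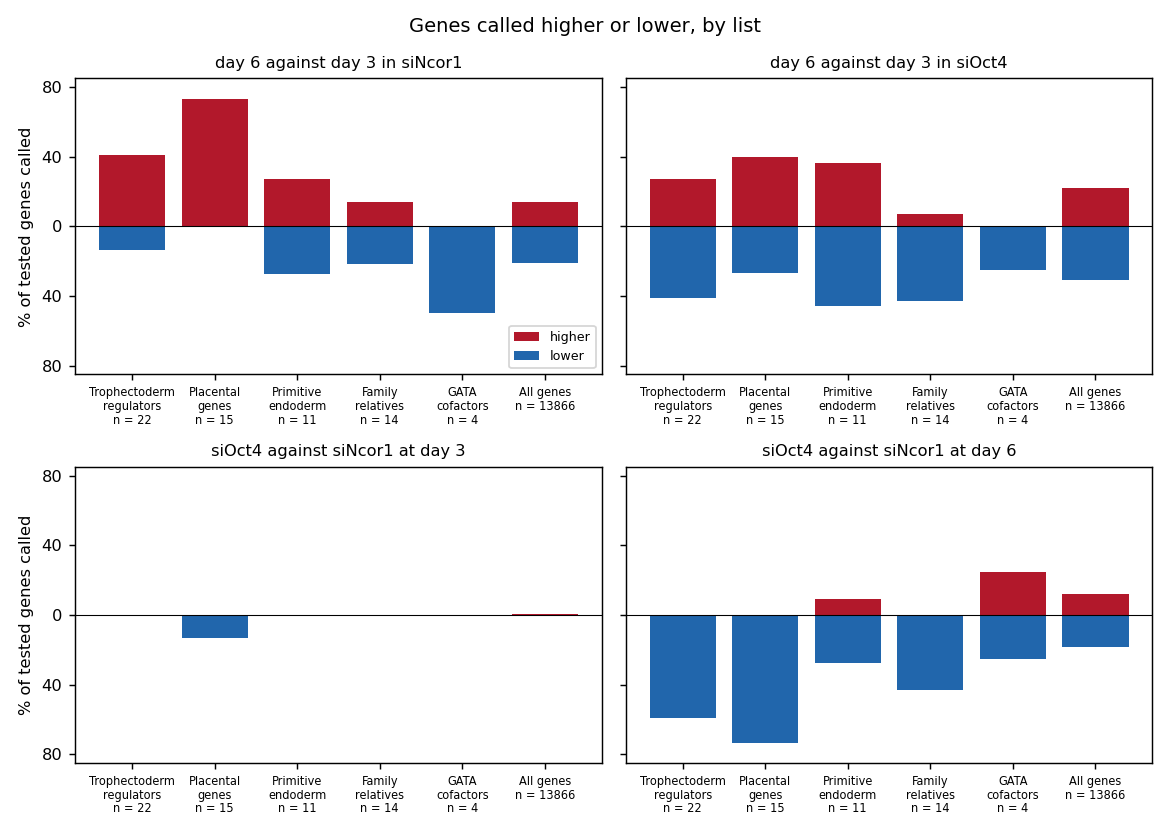
Share of the tested genes of each list called higher (red, upward) or lower (blue, downward) by limma at an adjusted p under 0.05 in each panel's comparison, with the share among all 13866 tested genes at the right. The placental list has 11 of 15 genes higher over time in *siNcor1* and 11 of 15 lower in *siOct4* at day 6, the same libraries of *siNcor1* at day 6 serving both. *Gjb2* and *Phlda2* passed the filter mainly through those libraries.

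Primitive endoderm and yolk sac genes, which mark the other extraembryonic lineage, were called in both directions. Of 11 tested (13 of 18 analysed), 3 rose and 3 fell in *siNcor1*, beside 13.8% and 20.9% of all tested genes, and 4 rose and 5 fell in *siOct4*, beside 22.2% and 30.5%. At day 6 1 was higher and 3 were lower in *siOct4*, beside 12.1% and 18.6%. The one higher was *Amn*, a subunit of the yolk sac endocytic receptor for cobalamin, with 29 and 14 reads in *siNcor1* and 101 and 68 in *siOct4* (log2 difference 2.13, standard error 0.44, adjusted p = 0.00435, but 0.0588 without *siNcor1* day 6 replicate 2). Its receptor partner *Cubn* had 16 and 24 reads in *siNcor1* and 4 and 16 in *siOct4* (−0.96, adjusted p = 0.118). *Lrp2*, a further endocytic receptor, was lower in *siOct4* (−1.06, adjusted p = 0.00373, but 0.0537 without *siNcor1* day 6 replicate 2). *Sox7*, an endoderm and endothelial factor, rose in both knockdowns, by 1.96 and 1.72, calls lost under 4 and 1 of 15 alternatives (adjusted p up to 0.0787 and 0.109).

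Among relatives of the members (GATA, AP-2, caudal, T-box and HAND genes), 14 of 21 were tested, *Cdx1* mainly through its *siNcor1* day 6 level. At day 6, 6 were lower in *siOct4*, beside the 18.6% of all tested genes. Over time 2 rose and 3 fell in *siNcor1*, which is near the 13.8% and 20.9% of all tested genes, and 1 rose and 6 fell in *siOct4*, beside 22.2% and 30.5%. *Cdx1*, a caudal relative of *Cdx2*, had 0 reads at day 3 as *Cdx2* did, and 37 and 46 reads in *siNcor1* and 10 and 6 in *siOct4* at day 6 (log2 difference −2.03, adjusted p = 0.0145, lost under 3 of 15 alternatives, up to 0.143). *Gata6*, the primitive endoderm GATA factor, did not share the *Gata2* course in *siNcor1*, where it fell by 0.97 (adjusted p = 0.0163, lost without either *siNcor1* day 3 replicate or without *siNcor1* day 6 replicate 1, up to 0.121), and its day 6 difference was −0.16 (adjusted p = 0.676). The limb and heart factor *Tbx5* was lower in *siOct4* at day 6 by a log2 difference of −1.12 (adjusted p = 0.00675) and *Hand2* by −0.83 (adjusted p = 0.0462, a call lost under 9 of 15 alternatives, up to 0.219). Of the 4 GATA cofactors tested, *Zfpm2*, which encodes the GATA partner FOG2, was lower in *siOct4* at day 6 (−0.96, adjusted p = 0.0225, lost under 3 of 15 alternatives, up to 0.182). *Lmo4* was higher (0.45, adjusted p = 0.0212), a call lost under 4 of 15 alternatives, voom and the fit without the variance trend among them (up to 0.137). Both cofactors fell over time in *siNcor1*, by 1.32 and 0.55, and the latter call was lost under 2 of 15 alternatives (up to 0.0581).

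Markers of cell types that these cultures could hold did not all move as the members did. Of the 10 trophoblast markers listed, 8 were among the genes analysed, without *Tpbpa* and *Prl3d1*, and 5 of the 8 are members. The summed level of the 8 was between 7.09 and 9.47 CPM at day 3, 51.3 and 52.9 CPM in *siNcor1* at day 6, and 10.99 and 14.9 CPM in *siOct4* at day 6. Its largest parts in *siNcor1* at day 6 were *Tfap2c* (20.1 and 19.0 CPM) and *Krt7* (17.7 and 19.4 CPM), which are not restricted to trophoblast. Of the markers that are not members, *Krt7*, a keratin of trophoblast and other simple epithelia, had 214 and 231 reads in *siNcor1* and 7 and 21 in *siOct4* at day 6. The more restricted *Elf5* and *Gcm1* had 19 and 15, and 15 and 14 reads in *siNcor1*, and 4 and 0, and 0 and 0 reads in *siOct4*. They were thus at between 1.18 and 1.57 CPM in *siNcor1* at day 6, and had at most 4 reads in any other library. The 8 pluripotency markers summed to between 1.42 and 7.77 CPM at day 3, to 101 and 109 CPM in *siNcor1* and to 49.7 and 43.2 CPM in *siOct4* at day 6. All 6 of these that were tested rose over time in both knockdowns, beside 13.8% of all tested genes in *siNcor1* and 22.2% in *siOct4*. Most of them passed the filter mainly through day 6, so this count is partly set by it. *Nanog* had 390 and 380 reads in *siNcor1* and 123 and 197 in *siOct4* at day 6. *Zfp42* and *Dppa4*, which mark established pluripotent cells, were under the filter and had at most 4 reads in any library. The 7 keratinocyte markers summed to 9.25 and 11.3 CPM in *siNcor1* and to 4.97 and 5.18 CPM in *siOct4* at day 6, and to between 2.61 and 3.79 CPM at day 3. Among them *Krt10* went the other way at day 6, with 1.57 and 1.51 CPM in *siNcor1* and 2.64 and 2.72 CPM in *siOct4*. The 7 fibroblast markers, which all had reads in every library, summed to between 6794 and 11065 CPM at day 3. At day 6 they summed to 4614 and 5025 CPM in *siNcor1* and 2567 and 2709 CPM in *siOct4*. Their sum was thus below the day 3 range in both knockdowns, but the single markers did not all fall. In *siNcor1* 3 of the 7 were called higher and 3 lower over time (median log2 difference 0.020), beside 13.8% and 20.9% of all tested genes. *Col1a1* there went from 3812 and 3617 to 1595 and 1756 CPM, and *Dcn* from 24.4 and 31.0 to 147 and 169 CPM. In *siOct4* 1 rose and 5 fell, beside 22.2% and 30.5%. Between the knockdowns at day 6, 6 of the 7 were lower in *siOct4*, beside 18.6%. Endothelial markers (6 analysed) were between 26.9 and 37.2 CPM, and blood and macrophage markers (6 analysed) between 12.2 and 13.2 CPM, in the 4 day 6 libraries. At day 3 the endothelial sum was between 57.7 and 60.4 CPM and the blood and macrophage sum between 7.25 and 10.5 CPM. Levels of the OSKM cassette genes moved in the other direction at day 6: *Sox2*, *Klf4* and *Myc* were higher in *siOct4* by 1.63, 1.67 and 1.59 on the log2 scale (adjusted p of 3.3e-04, 2.6e-04 and 2.0e-04). The part of these shifts in the differences of the 9 members was not tested.

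**Figure D4:**
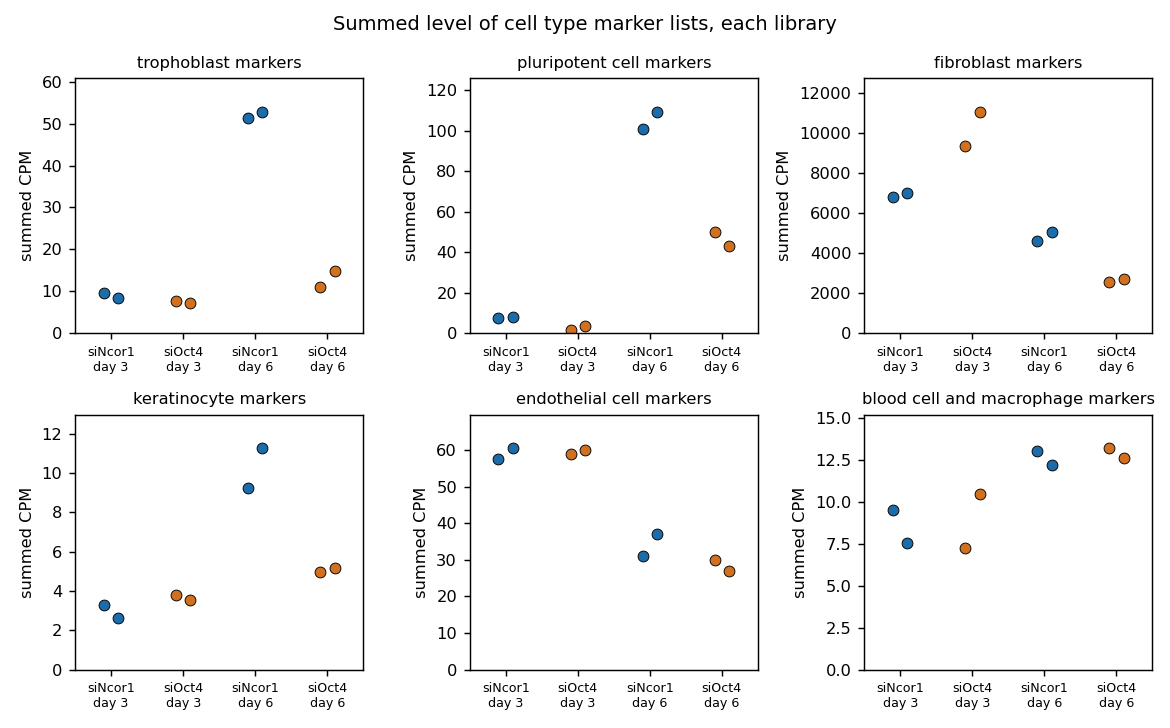
Summed level in CPM (linear axis from 0) of 6 lists of cell type markers in each library, blue for *siNcor1* and orange for *siOct4*. The trophoblast, pluripotency and keratinocyte sums are highest in the *siNcor1* day 6 libraries, and the fibroblast sum is lowest in the day 6 libraries labelled *siOct4*.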

How the data were processed

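RNA-seq was measured in 8 libraries, 2 biological replicates in each of 4 groups given by the sample titles. According to the submitters' processing notes the authors used STAR 2.5.2b, mm10 and edgeR 3.20.9, and the deposited values are log2-cpm. The read counter is not given in the sources used here. The lowest deposited log2 value, −2.87, stands for 0 reads. Removing the constant it holds gave whole reads for 100% of values (tolerance 0.1 read). CPM and RPKM in the text were computed from these, with exon lengths of GENCODE M21 (18969 of 18990 identifiers matched).

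The 4 groups were fitted together with limma 3.58.1 (R 4.3.3, lmFit and eBayes with trend, two-sided) for the 13866 genes that averaged 1 CPM or more over all 8 libraries, with Benjamini-Hochberg adjustment over all tested genes at 0.05. Fold changes are on the scale of the deposited log2 values, which understates those of low genes. Members under the filter take adjusted p from the fit of all 18990 genes. A group with 0 reads was set to 3 reads over the group. The ratio so obtained takes the reads of the other group as exact and is no full lower bound. With 1 to 3 reads a ratio with a 95% exact counting interval is given. As a check of the code, the fit was run on simulated reads with known changes. The same spread setting served all genes there, so that run does not measure the error of the calls in these data. Figures were drawn with matplotlib 3.10.9.

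The members, the lists and the tests were chosen with earlier results of these data known. Named list genes are the up to 4 with the largest log2 fold change past the threshold in any comparison of 2 groups. The genes most alike are the 2 nearest of all tested genes. One of these is not reported here. Alternatives were a fit without trend, median centring, quantile normalization, no filter, a pseudocount of 1 CPM, voom on the recovered reads, the replicate block, only the groups compared, and leaving out each library.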

Additional observations from a re-analysis of the deposited data

Results flagged for a closer look

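The difference between the knockdowns changed from day 3 to day 6 beyond the spread of the replicates in 2 members. For *Gata2* the change was −2.21 on the log2 scale (standard error 0.24, limma adjusted p = 6.0e-04), since both day 6 libraries labelled *siOct4* were below both *siNcor1* day 6 libraries while the day 3 groups overlapped. For *Gata3* it was −1.72 (standard error 0.35, adjusted p = 0.00626) with the same arrangement of libraries. Both changes held under all 15 alternatives, with adjusted p up to 0.00961 for *Gata2* and up to 0.0438 for *Gata3*, beside 12.9% of all tested genes that changed in this direction. For *Tfap2c*, *Eomes*, *Rhox5*, *Cdx2* and *Hand1* the change did not pass the threshold, and for *Rhox9* it was −2.66 (adjusted p = 0.0237, without the filter), a call lost under 7 of 14 alternatives.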

How the results depend on the processing

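Of 537 tested values of single members under alternatives, 480 kept their direction and their side of the threshold, 35 lost a call, 15 gained one and 7 turned in sign. Of 63 values of *Rhox6*, which has no test, 3 moved by more than the spread. Those that turned were small: for *Gata2* at day 3, 0.0050 after quantile normalization and a range of −0.16 to 0.13 when 1 library was left out, and for *Gata3* at day 3 a range of −0.078 to 0.26. The change of the knockdown difference was −0.26 for *Tfap2c* with a pseudocount of 1 CPM and −0.095 to 1.04 when 1 library was left out, and −0.88 to 0.20 for *Eomes*. The cause was not tested. At day 3 the 148 genes called became 43 without the variance trend, and the 1 member called became 0 without the trend, with voom and with only the groups compared. With 1 library left out, the genes called ranged from 3 to 375 at day 3 (0 to 1 members), 1398 to 4669 at day 6, 2360 to 5954 over time in *siNcor1* and 1009 to 3667 for the change of the knockdown difference. At day 3 each library moved the count by over 1.5 times, at day 6 either *siNcor1* day 6 library did (2640 and 1398), over time in *siNcor1* these (2572 and 2980) and *siNcor1* day 3 replicate 2 (2360), and for the change of the difference these (1767 and 1189) with *siNcor1* day 3 replicate 2 (1009) and *siOct4* day 3 replicate 2 (1377). A lone library left in a group was assumed to vary like the others. Of the genes called at day 6, 39.5% were higher in *siOct4*, 28.8% with voom, 46.0% with median centring and 47.3% with quantile normalization.

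The replicate numbers did not pair the libraries by the labels, and the deviations of same-numbered libraries correlated between −0.040 and 0.281. With the block on replicate number, 222 genes were called at day 3 and 4698 at day 6, 5218 over time in *siNcor1*, 7570 in *siOct4* and 3395 for the change of the knockdown difference, and the members called were 1, 3, 3, 3 and 2.

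Each group rests on 2 libraries, and *Cdx2*, *Hand1*, *Rhox5* and *Rhox9* on at most 27 reads in any library.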
